A study of Mus musculus with 15 samples.

Results

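The 9 genes described here encode surfactant proteins or proteins of the alveolar type 2 cell that makes surfactant, and they were followed in the lungs of mice that received rCNT, carbon nanotubes of a stiff, rod-like shape. They were Sftpa1, Sftpb, Sftpc and Sftpd, which encode the surfactant proteins, Abca3, Lamp3 and Napsa, which serve the organelle where surfactant is stored, and the lipid enzyme gene Lpcat1 and the phosphate transporter gene Slc34a2. They were chosen by name, through the RefSeq accession that the array gives for each probe. They are 9 of the 25256 genes or unnamed transcripts tested, and 10 of the 55681 probes of the array map to them. Sftpd has 2 probes, and the other members have 1 probe each. Every member was well above background in 15 of 15 samples, so all 9 passed the filter on dim probes.

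Whole-lung RNA of female C57BL/6 mice aged 7 to 8 weeks was hybridised to Agilent 2-colour arrays, and each sample is 1 channel of an array. Aspirated rCNT samples (4) came from mice that drew 10 µg of rCNT in 50 µl of phosphate-buffered saline (PBS) into the lung from the back of the throat on each of 4 days. PBS samples (4) came from mice that aspirated 50 µl of PBS alone. Inhaled rCNT samples (3) came from mice that breathed an aerosol of 6.2 to 8.2 mg per cubic metre for 4 h per day on 4 days, and untreated samples (4) are the control of that route. Collection followed 24 h after the last exposure, and a higher aspiration dose of the same study was not analysed here. The labels give no genetic modification for any group. Whether each sample is a separate mouse is not stated, and the array names of the inhaled rCNT and untreated samples carry the word Pool without explanation. The p-values therefore reflect only how far these samples differ among themselves, and that spread may be technical.

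Several features of the arrays bear on the results below. The 8 samples of the aspiration arm shared slide 1 and the 7 of the inhalation arm were divided over slides 2 and 3, so slide, route and kind of control cannot be told apart. Inhaled rCNT replicate 2 and untreated replicate 4 share 1 array. Untreated replicate 1 has a title that speaks of PBS aspiration, against its remaining labels, and it was kept as untreated. On the first principal component, which held 43.3% of the variance, inhaled rCNT and PBS samples lay between -6.39 and 1.11, aspirated rCNT samples between -49.1 and -44.3, and untreated samples, which stood apart from the PBS controls, between 47.7 and 51.8. Untreated replicate 1 lay with the other untreated samples at 47.7. The second component set inhaled rCNT samples (-55.4 to -45.3) apart from PBS samples (-8.62 to -0.215). Over all genes tested, correlations between replicates of a group lay between 0.9939 and 0.998.

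Pulmonary surfactant is a film of phospholipid and protein that lowers surface tension in the alveoli. Type 2 cells assemble it in lamellar bodies, secrete it and take much of it up again, and alveolar macrophages clear the rest. The hydrophobic proteins B and C spread the lipid film, whereas proteins A and D are soluble lectins that bind microbes and particles. Transcription of several of these genes depends on the homeodomain factor NKX2-1, and factors of the forkhead family take part as well.

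Promoter windows are shown for 4 members, the pair that fell after aspiration (Sftpb and Abca3) and 2 that passed by neither route (Sftpa1 and Lamp3), so that their letters can be set beside the expression values. RefSeq (GRCm38.p6) gives a window of 300 bases, 250 before and 50 after the transcription start, for 6 of the 9 members, and Napsa, Sftpc and Sftpd were not in the table used. The windows below run 5′ to 3′ on the gene's strand and lie at chr6:72304360-72304659 (plus strand, Sftpb), chr17:24351773-24352072 (plus strand, Abca3), chr14:41131538-41131837 (plus strand, Sftpa1) and chr16:19706316-19706615 (minus strand, Lamp3). Capitals mark the letters CTCAAG, a core of the NKX2-1 motif, or TGTTTAC, a core of the forkhead motif, searched on both strands.
Sftpb: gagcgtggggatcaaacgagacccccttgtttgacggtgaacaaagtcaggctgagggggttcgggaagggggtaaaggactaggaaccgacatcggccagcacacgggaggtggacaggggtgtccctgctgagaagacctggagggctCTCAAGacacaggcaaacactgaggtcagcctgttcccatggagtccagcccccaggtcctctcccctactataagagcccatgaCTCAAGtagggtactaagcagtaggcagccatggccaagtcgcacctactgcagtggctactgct
Abca3: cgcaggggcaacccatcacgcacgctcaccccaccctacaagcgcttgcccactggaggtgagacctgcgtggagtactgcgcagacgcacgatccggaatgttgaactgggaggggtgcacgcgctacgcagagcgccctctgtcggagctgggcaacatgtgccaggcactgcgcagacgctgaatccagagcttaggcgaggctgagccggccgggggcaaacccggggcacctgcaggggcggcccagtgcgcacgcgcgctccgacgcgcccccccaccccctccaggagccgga
Sftpa1: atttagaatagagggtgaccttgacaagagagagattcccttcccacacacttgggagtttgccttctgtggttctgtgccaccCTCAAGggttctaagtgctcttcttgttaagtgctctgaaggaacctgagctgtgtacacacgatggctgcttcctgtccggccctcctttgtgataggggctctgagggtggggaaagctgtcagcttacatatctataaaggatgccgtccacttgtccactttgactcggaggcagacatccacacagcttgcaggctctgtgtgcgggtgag
Lamp3: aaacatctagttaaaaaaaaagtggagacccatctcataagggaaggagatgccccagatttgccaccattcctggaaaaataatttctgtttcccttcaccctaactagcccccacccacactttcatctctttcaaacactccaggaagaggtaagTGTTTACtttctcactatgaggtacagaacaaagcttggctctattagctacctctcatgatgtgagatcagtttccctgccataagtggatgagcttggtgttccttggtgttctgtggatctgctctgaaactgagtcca
Sftpb held CTCAAG at 2 places, which begin 100 and 15 bases before the start, and Sftpa1 held it 166 bases before the start. Lamp3 held TGTTTAC 92 bases before the start. Neither motif was found in the windows of Abca3, Lpcat1 and Slc34a2. CTCAAG occurred in 15.9% and TGTTTAC in 3.65% of the 32851 RefSeq promoter windows of this length, and such a match is a description of the letters only.

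Expression is given as the log2 of the normalised intensity of the sample's own channel, in the order of the replicate numbers. A log2 fold change comes from 1 limma fit over all 15 samples with the group and the dye as terms, and its error is the standard error (SE). Because of the dye term, a fold change that involves the inhaled rCNT group, where 1 of 3 samples carried Cy5, can differ from the difference of the 2 group means. A gene passed the test at an adjusted p below 0.05 (Benjamini-Hochberg over all genes tested). In whole lung, fewer cells of a type and less RNA per cell cannot be told apart.

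The first question was how the genes of the type 2 cell stood after aspirated rCNT, against aspirated PBS. Sftpd rose to 1.98 times the level of PBS lungs, while Sftpb and Abca3 fell to 0.707 and 0.704 of it. The other 6 members did not pass the test. These 3 of 9 members (33.3%) compare with 47.1% of all genes tested, of which 20.6% were higher and 26.5% lower, and the median log2 fold change of the members was -0.18, against -0.04 over all genes. The groups did not overlap for the same 3 members, and over all genes they did not overlap for 42.5%.

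Sftpd, which encodes the lectin that binds sugars on microbes and particles and tempers alveolar inflammation, stood at 17.31, 18.14, 17.27 and 17.84 in aspirated rCNT samples, against 16.48, 16.73, 16.66 and 16.74 in PBS samples. All exposed samples lay above all PBS samples. The difference was 0.99 ± 0.15 (adjusted p = 5.32e-05, limma), and the other Sftpd probe was higher by 0.82 ± 0.09 (adjusted p = 2.11e-06 over all probes). The 2 exposed samples in Cy3 (18.14 and 17.84) were higher than the 2 in Cy5 (17.31 and 17.27), so the difference was 1.42 within Cy3 and 0.56 within Cy5, and it passed in both.

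Sftpb encodes surfactant protein B, without which lamellar bodies do not form properly and newborn mice cannot breathe. It was at 16.82, 16.61, 16.80 and 16.67 in aspirated rCNT samples and at 17.25, 17.17, 17.36 and 17.11 in PBS samples, with no overlap. The difference was -0.50 ± 0.07 (adjusted p = 1.69e-05, limma). Abca3, the transporter that loads phospholipid into lamellar bodies, was at 14.99, 14.92, 14.95 and 14.87 in aspirated rCNT samples, against 15.35, 15.35, 15.53 and 15.51 in PBS samples. It fell by 0.51 on the log2 scale (SE 0.07, adjusted p = 2.71e-05, limma), again without overlap. The promoter windows of these 2 genes differ in the letters searched, since Sftpb holds CTCAAG at 2 places and Abca3 at none.

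Sftpc encodes surfactant protein C, which within the lung is made by type 2 cells alone and so defines them. It was at 18.58, 17.65, 18.58 and 17.31 in aspirated rCNT samples and at 18.00, 18.58, 18.09 and 18.58 in PBS samples. The groups overlapped, and the difference of -0.28 ± 0.13 did not pass (adjusted p = 0.0867, limma). The value 18.58 is a ceiling set by the normalisation. Sftpc was the brightest probe of the array in all 7 Cy5 channels and ranked 3rd to 40th in the 8 Cy3 channels, and quantile normalisation gives every brightest probe 1 common value. Within the Cy3 samples, which are not at that ceiling, Sftpc was at 17.65 and 17.31 in aspirated rCNT samples and at 18.00 and 18.09 in PBS samples. The difference there was -0.57 ± 0.14 (adjusted p = 0.00704, limma), from a comparison within each dye that was added after the data were seen. With median centring the Cy3 difference was -0.66 ± 0.24 and missed the threshold (adjusted p = 0.0594, limma), and with cyclic loess over both dyes it was -0.64 ± 0.16 (adjusted p = 0.00363, limma). Before normalisation the Cy5 intensities of Sftpc were 506836 and 530406 in aspirated rCNT samples, against 572621 and 579251 in PBS samples, and with median centring the Cy5 difference was -0.21 ± 0.24 (adjusted p = 0.602, limma).

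The remaining 5 members after aspiration lay within 0.22 of PBS on the log2 scale and did not pass. Sftpa1, the soluble lectin of surfactant that shares its chromosome with Sftpd, averaged 16.64 ± 0.06 in aspirated rCNT samples and 16.57 ± 0.12 in PBS samples (SD, n = 4 each), and the difference of 0.07 had a 95% interval of -0.10 to 0.23. For Lamp3, a membrane protein of lamellar bodies, the mean was 15.49 ± 0.09 in aspirated rCNT samples and 15.60 ± 0.15 in PBS samples (difference -0.11, 95% interval -0.35 to 0.13). Napsa, the aspartic protease that trims the precursor of surfactant protein B, was at 13.62, 13.58, 13.60 and 13.65 in aspirated rCNT samples and at 13.72, 13.63, 13.73 and 13.56 in PBS samples. Its difference of -0.05 had a 95% interval of -0.24 to 0.14. Lpcat1, the enzyme that remodels surfactant phosphatidylcholine, differed by -0.18 ± 0.09 (adjusted p = 0.0946, limma), and Slc34a2, the phosphate importer of the type 2 cell's apical membrane, by -0.22 ± 0.11 (adjusted p = 0.116). Both passed when PBS replicate 2, the lowest PBS sample for Lpcat1 and Slc34a2, was left out (-0.26 with adjusted p = 0.0163 for Lpcat1 and -0.33 with adjusted p = 0.0179 for Slc34a2, limma). That brought the members past the threshold to 5.

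**Figure D1:**
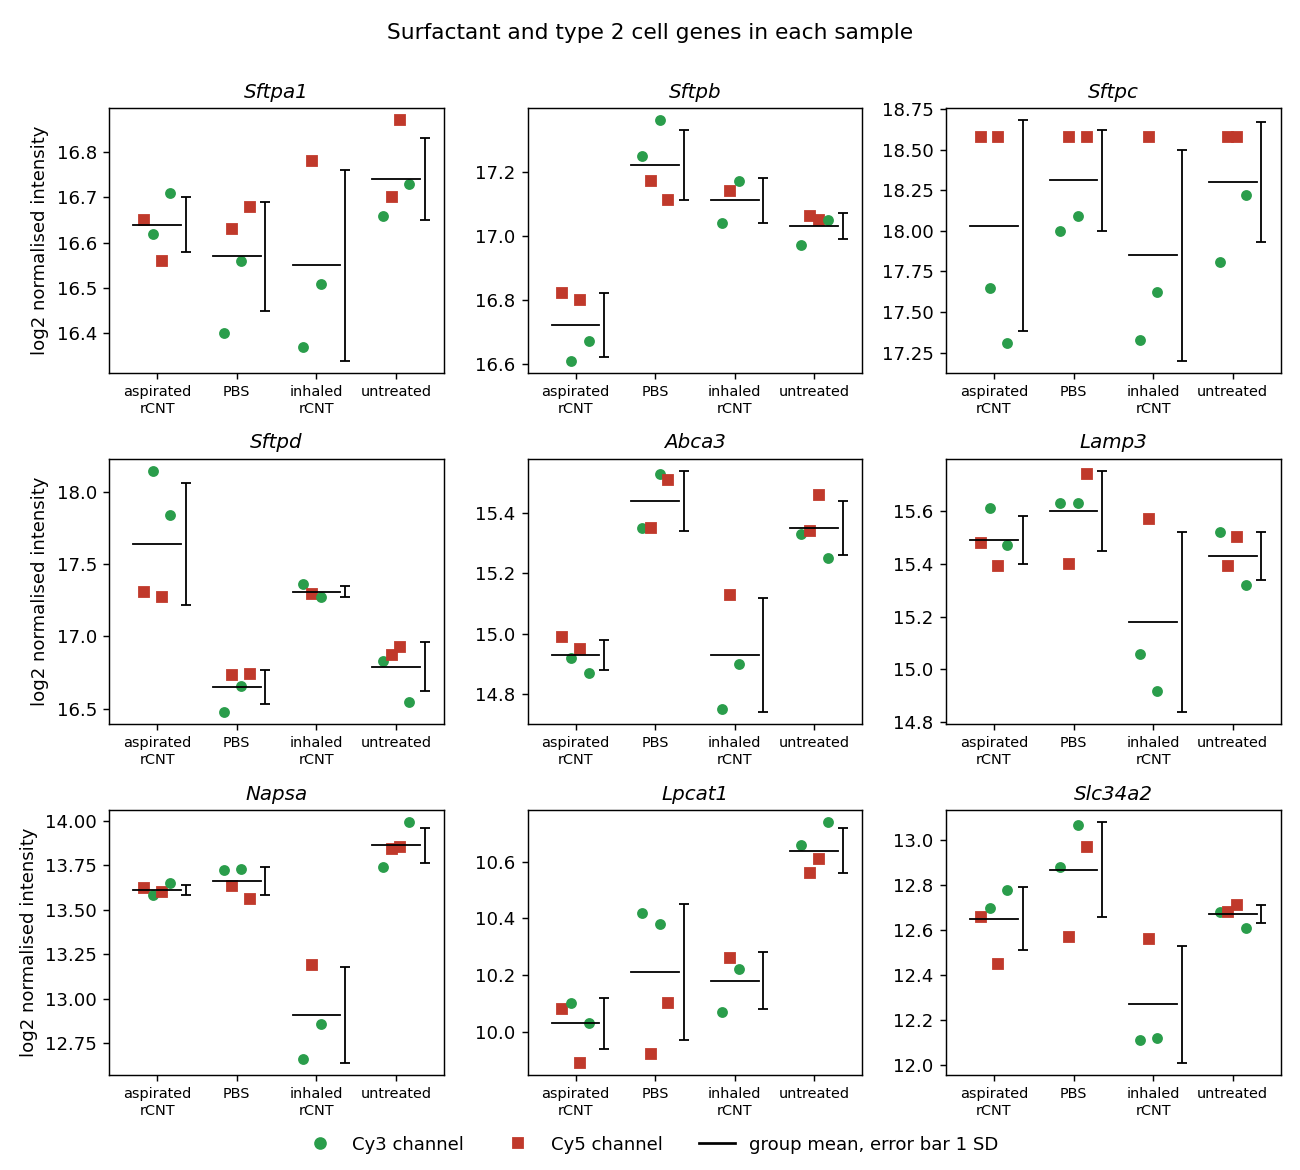
Log2 normalised intensity (y axis) of the 9 genes in each sample, by group along the x axis. Points are samples, green circles Cy3 and red squares Cy5, and lines and bars give the group mean and 1 SD. Sftpd lies highest and Sftpb lowest in aspirated rCNT samples, Napsa lies lowest in inhaled rCNT samples (12.66 to 13.19), and every Cy5 sample of Sftpc sits at 18.58.

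The second question was how the same genes stood after inhaled rCNT, against untreated lungs. Napsa, Lpcat1, Abca3 and Slc34a2 fell, to 0.519, 0.715, 0.757 and 0.754 of the untreated level. Sftpd rose to 1.41 times that level by the probe that stands for it. These 5 of 9 members (55.6%) compare with 60.8% of all genes tested (28.4% higher, 32.5% lower), and their median log2 fold change was -0.32, against -0.02 over all genes. The groups were apart for the same 5 members and for 54.8% of all genes. The sizes depend on how channels are brought to 1 scale. With median centring in place of quantile normalisation the median of all genes shifted to -0.165, and 26.8% of calls were higher in place of 46.6%. Under it 8 of 9 members passed as lower, all except Sftpd. Over all genes 11131 of 25256 passed as lower with median centring, in place of 8198.

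Napsa had the largest change of the members after inhalation. It was at 12.66, 13.19 and 12.86 in inhaled rCNT samples, against 13.74, 13.84, 13.85 and 13.99 in untreated samples, and the highest exposed sample lay below the lowest untreated one. The difference was -0.95 ± 0.10 (adjusted p = 7.28e-07, limma). Within slide 2, which holds inhaled rCNT replicate 1 alone of its group, it was -1.13. Within slide 3, which holds untreated replicate 4 alone of its group, it was -0.98. It passed in 34 of 34 alternatives, with values from -1.71 to -0.65.

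Lpcat1 was at 10.07, 10.26 and 10.22 in inhaled rCNT samples and at 10.66, 10.56, 10.61 and 10.74 in untreated samples. The groups were apart, and Lpcat1 fell by 0.48 on the log2 scale (SE 0.09, adjusted p = 0.000319, limma). It differed by -0.65 within slide 2 and by -0.42 within slide 3, each with 1 sample in 1 of the groups. Set against PBS samples instead, inhaled rCNT samples differed in Lpcat1 by -0.05 ± 0.09 (adjusted p = 0.675, limma), and by -0.41 ± 0.12 with median centring, which passed (adjusted p = 0.00851, limma).

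Abca3 was at 14.75, 15.13 and 14.90 in inhaled rCNT samples, against 15.33, 15.34, 15.46 and 15.25 in untreated samples, with no overlap. The difference was -0.40 ± 0.08 (adjusted p = 0.000337, limma). Within slide 2 Abca3 differed by -0.59 and within slide 3 by -0.27, each with 1 sample in 1 of the groups. Slc34a2 was at 12.11, 12.56 and 12.12 in inhaled rCNT samples and at 12.68, 12.68, 12.71 and 12.61 in untreated samples. Inhaled rCNT replicate 2 came within 0.05 of the lowest untreated sample, though the groups did not overlap. Slc34a2 fell by 0.41 on the log2 scale (SE 0.12, adjusted p = 0.00929, limma). The call was lost without inhaled rCNT replicate 1 (-0.33, adjusted p = 0.0521, limma) or replicate 3 (-0.33, adjusted p = 0.0519, limma). It was lost as well with cyclic loess (-0.27, adjusted p = 0.061, limma). Slc34a2 differed by only -0.24 within slide 3 and -0.13 within Cy5, each with 1 sample in 1 of the groups.

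Sftpd was at 17.36, 17.29 and 17.27 in inhaled rCNT samples and at 16.83, 16.87, 16.93 and 16.55 in untreated samples, with no overlap. The difference was 0.50 ± 0.16 (adjusted p = 0.0149, limma). Its other probe differed by 0.11 ± 0.10 and did not pass (adjusted p = 0.338 over all probes, limma), so the 2 probes disagree for this route. The call was also lost with median centring (0.05, adjusted p = 0.662, limma) and with array weights (0.40, adjusted p = 0.0799, limma). It was lost as well without inhaled rCNT replicate 2 (0.47, adjusted p = 0.0554, limma) and without untreated replicate 4 (0.38, adjusted p = 0.0608, limma). Within slide 2, which holds 1 inhaled rCNT sample, Sftpd differed by 0.38. With cyclic loess Sftpd differed by 0.94 (adjusted p = 1.01e-06, limma).

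The other 4 members did not pass after inhalation. Sftpc was at 17.33, 18.58 and 17.62 in inhaled rCNT samples and at 17.81, 18.58, 18.58 and 18.22 in untreated samples, where 18.58 again marks the Cy5 channels. The difference was -0.32 ± 0.14 (adjusted p = 0.0614, limma). Within Cy3 it was -0.54 ± 0.14 (adjusted p = 0.00591), while cyclic loess gave 0.23 (adjusted p = 0.286, limma), so the direction of Sftpc was not the same under every scaling. Lamp3 was at 15.06, 15.57 and 14.92 in inhaled rCNT samples and at 15.52, 15.39, 15.50 and 15.32 in untreated samples. Inhaled rCNT replicate 2 lay above all untreated samples and the other 2 below them. Lamp3 differed by -0.24 ± 0.12 (adjusted p = 0.105, limma), and by -0.47 (adjusted p = 0.00114) without that sample.

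Sftpa1 averaged 16.55 ± 0.21 in inhaled rCNT samples (SD, n = 3) and 16.74 ± 0.09 in untreated samples (SD, n = 4), and Sftpb averaged 17.11 ± 0.07 in inhaled rCNT samples and 17.03 ± 0.04 in untreated samples. The fitted differences were -0.17 ± 0.08 (adjusted p = 0.0999, limma) for Sftpa1 and 0.09 ± 0.07 (adjusted p = 0.331) for Sftpb. Neither has a settled direction, because Sftpb passed as lower with median centring (-0.43) and as higher with cyclic loess (0.47), and Sftpa1 went to 0.16 with cyclic loess.

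**Figure D2:**
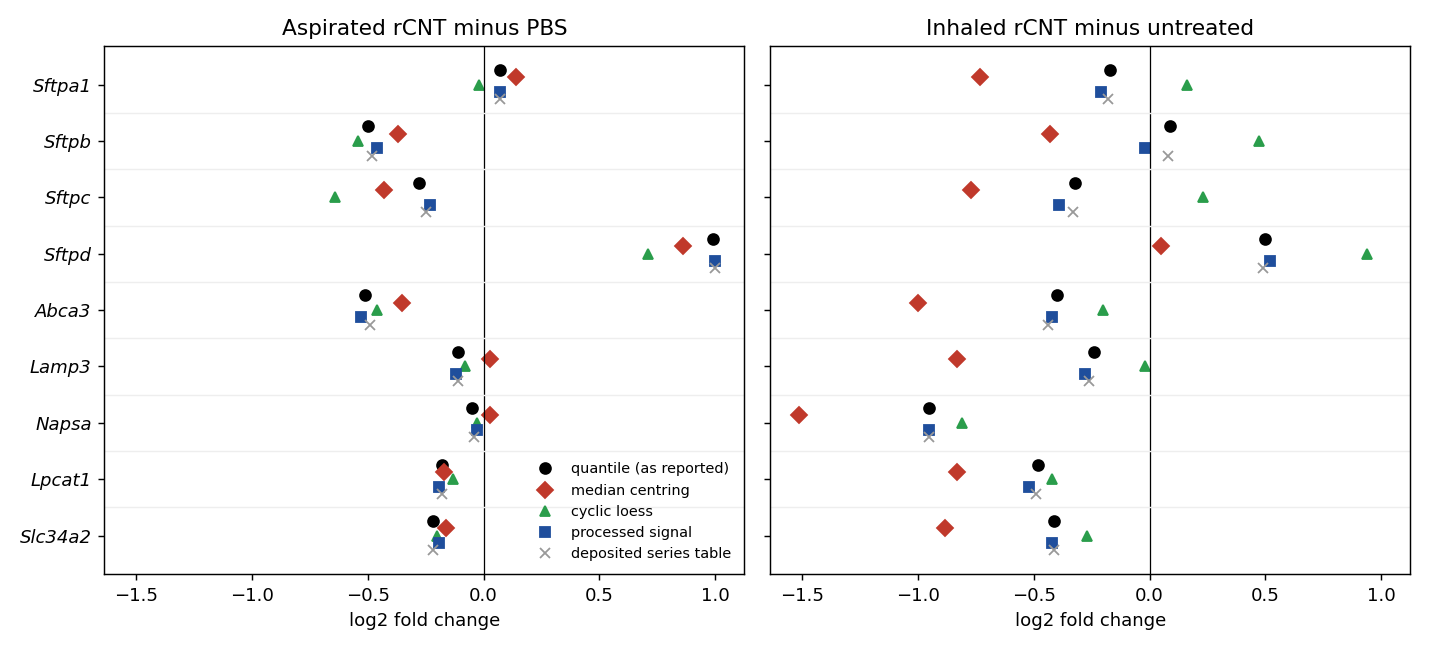
Log2 fold change (x axis) of each gene under 5 ways of bringing the channels to 1 scale, for aspirated rCNT minus PBS (left) and inhaled rCNT minus untreated (right). After aspiration the markers of a gene lie close together and Sftpc spreads most (-0.64 to -0.23), whereas after inhalation median centring lies below the other scalings for every member and Sftpb runs from -0.43 to 0.47.

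The third comparison asked whether the 2 routes differed in their effect on these genes, as the effect of aspiration minus that of inhalation. Sftpb and Napsa passed, 2 of 9 members, against 57% of all genes tested (28.4% more positive by aspiration, 28.5% more negative). Sftpb had an effect of -0.50 by aspiration and 0.09 by inhalation, and the difference was -0.58 ± 0.10 (adjusted p = 0.000124, limma). That difference depends on the scaling and was 0.06 (adjusted p = 0.699, limma) with median centring, under which the share of calls that were higher went to 70% in place of 49.9%. Napsa had an effect of -0.05 by aspiration and -0.95 by inhalation, and the difference of 0.90 ± 0.13 (adjusted p = 3.61e-05, limma) passed in 27 of 27 alternatives, between 0.78 and 1.54. The difference for Sftpd was 0.49 ± 0.22 (adjusted p = 0.0704) by the probe that stands for it and 0.70 ± 0.14 (adjusted p = 0.000358 over all probes, limma) by the other. The former went to 0.8 with median centring (adjusted p = 3.87e-05, limma) and to -0.23 with cyclic loess (adjusted p = 0.164, limma). For Abca3, which fell by both routes, the difference was -0.10 with a 95% interval of -0.33 to 0.12. It passed in opposite directions with median centring (0.65, adjusted p = 0.000183, limma) and cyclic loess (-0.26, adjusted p = 0.0339, limma), so it depends on the scaling.

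**Figure D3:**
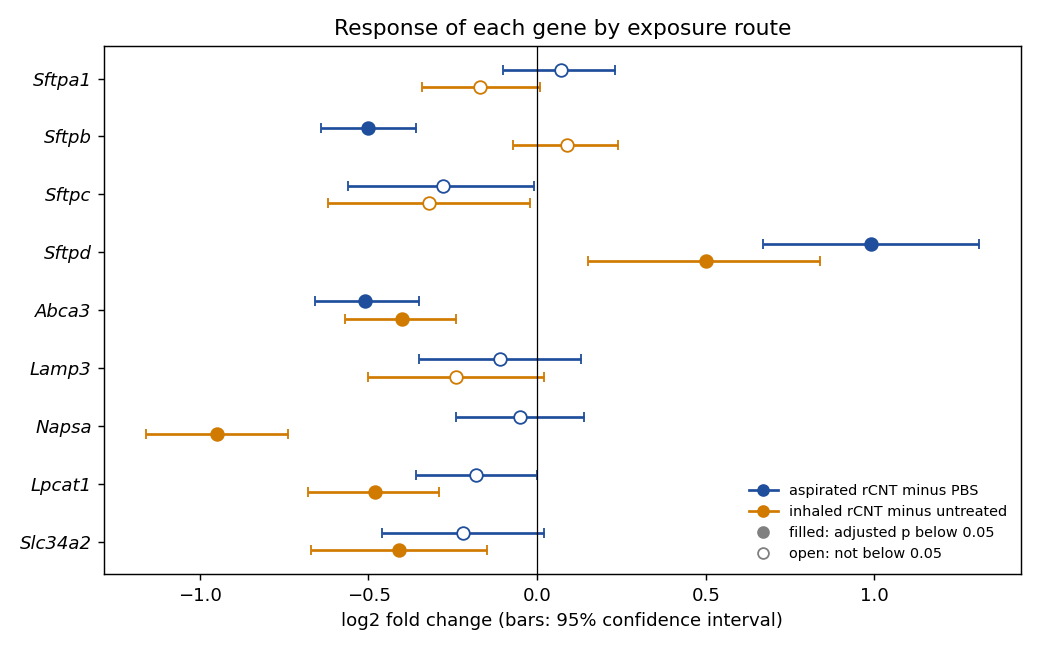
Log2 fold change (x axis) of each gene for aspirated rCNT minus PBS (blue) and inhaled rCNT minus untreated (orange), with 95% confidence intervals and filled points where the adjusted p was below 0.05. Abca3 is lower by both routes, Sftpb is at -0.50 after aspiration and at 0.09 after inhalation (-0.43 there with median centring), and Napsa is lower after inhalation at -0.95 and near 0 after aspiration at -0.05.

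The controls of the 2 routes were set beside each other as a description, since slide goes with them. Lpcat1 was 0.43 lower (SE 0.09, adjusted p = 0.000441, limma) and Sftpb 0.19 higher (SE 0.07, adjusted p = 0.024) in PBS than in untreated lungs. These 2 of 9 members compare with 59.4% of all genes (26.3% higher, 33.1% lower). The groups were apart for 3 of 9 members (Napsa as well) and for 49.3% of all genes. The call of Sftpb was lost with processed signal (0.05, adjusted p = 0.481, limma) and without PBS replicate 1 (adjusted p = 0.063), PBS replicate 3 (adjusted p = 0.101) or untreated replicate 1 (adjusted p = 0.0635). With median centring 8 of 9 members passed as lower in PBS than in untreated lungs, all except Slc34a2. Sftpa1 and Sftpd were both at -0.91 there, Sftpc at -0.83, Sftpb at -0.67, Napsa at -0.58 and Lpcat1 at -0.42. Over all genes the median under that scaling was -0.071, and 40.6% of calls were higher in place of 44.3%. With cyclic loess 4 members passed, 3 of them higher, and 50.9% of calls over all genes were higher. How many of all genes passed under these 2 scalings is not given here, so the member counts have no background.

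With PBS as the control, inhaled rCNT samples differed in 5 of 9 members, against 55.2% of all genes (27.5% higher, 27.7% lower). With median centring Sftpb (0.24, adjusted p = 0.0388, limma) and Lpcat1 (-0.41, adjusted p = 0.00851, limma) passed as well. Under that scaling 29.1% of calls over all genes were higher, in place of 49.9%. With quantile normalisation Sftpd was higher by 0.64 ± 0.16. Napsa (-0.75 ± 0.10), Slc34a2 (-0.61 ± 0.12), Abca3 (-0.50 ± 0.08) and Lamp3 (-0.40 ± 0.12) were lower. Their adjusted p-values and that of Sftpd lay between 1.34e-05 and 0.0112 (limma). Of these 5 members, Lamp3 missed the threshold with cyclic loess (-0.28, adjusted p = 0.0527, limma) and without inhaled rCNT replicate 3 (-0.28, adjusted p = 0.0775, limma). The others passed under each scaling. The groups were apart for 4 of 9 members and for 50.9% of all genes. With quantile normalisation, Abca3, Napsa, Slc34a2 and Sftpd thus passed in inhaled rCNT samples with either control. Lpcat1 passed only against untreated samples and Lamp3 only against PBS samples. With median centring Lpcat1 and Lamp3 passed against either control (Lamp3 at -0.83 against untreated samples, adjusted p = 1.1e-05, limma). Against untreated samples the call of Sftpd was lost with median centring (0.05, adjusted p = 0.662, limma). It was not reached by the other Sftpd probe (0.11, adjusted p = 0.338 over all probes, limma). The call of Slc34a2 against untreated samples was lost with cyclic loess (-0.27, adjusted p = 0.061, limma). The 2 comparisons share the inhaled rCNT samples.

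Over the 4 groups, mean Sftpd ran in the order aspirated rCNT (17.64 ± 0.42), inhaled rCNT (17.31 ± 0.04), untreated (16.79 ± 0.17) and PBS (16.65 ± 0.12). Inhaled rCNT samples lay within the range of aspirated ones, and the 2 controls overlapped. With median centring mean Sftpd was 17.26 in aspirated rCNT, 17.32 in inhaled rCNT, 17.31 in untreated and 16.40 in PBS samples, so PBS samples alone stood apart. Mean Abca3 was 14.93 in both exposed groups (SD 0.05 aspirated, 0.19 inhaled), below untreated (15.35 ± 0.09) and PBS (15.44 ± 0.10), which overlapped. Napsa was lowest in inhaled rCNT samples (12.91 ± 0.27), followed by aspirated rCNT (13.61 ± 0.03), PBS (13.66 ± 0.08) and untreated samples (13.86 ± 0.10). Aspirated rCNT and PBS did not differ beyond their spread. With median centring, Abca3 averaged 14.89 in aspirated rCNT, 14.70 in inhaled rCNT, 15.24 in PBS and 15.71 in untreated samples, and the 2 controls no longer overlapped.

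**Figure D4:**
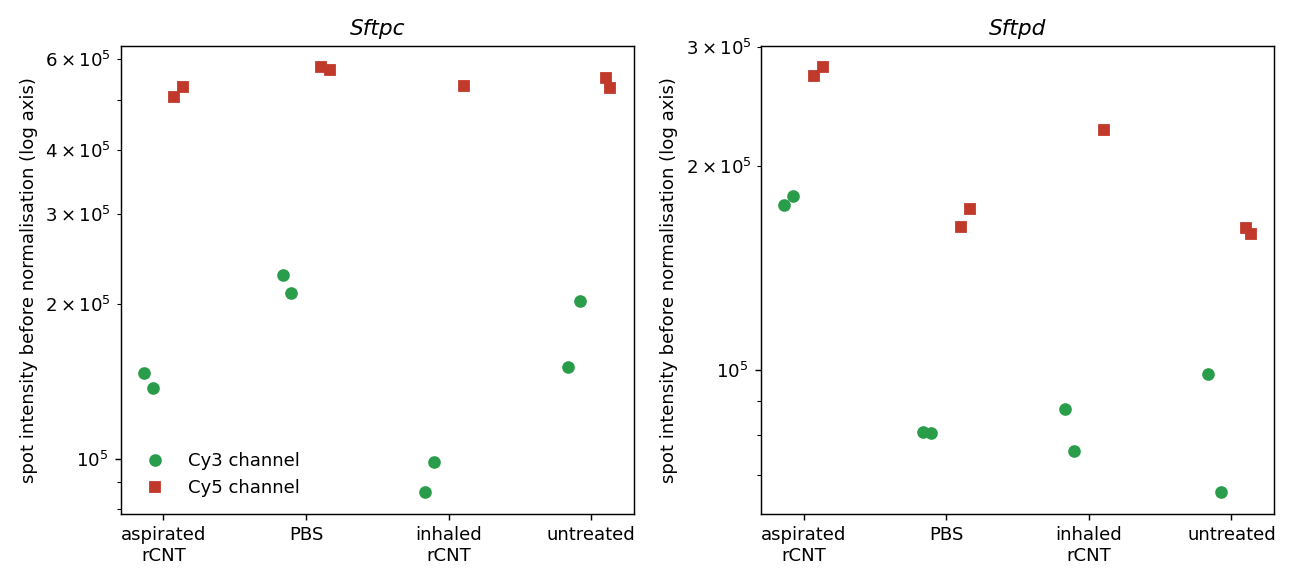
Spot intensity before normalisation (y axis, log scale) of Sftpc and the probe that stands for Sftpd, by group and dye. Cy5 values of Sftpc lie between 506836 and 579251 in all groups and Cy3 values between 86021 and 228091, and both dyes show Sftpd higher in aspirated rCNT than in PBS samples.

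Sftpa1 and Sftpd lie near each other on chromosome 14. In the RefSeq order Mbl1, which encodes a serum lectin of the same collectin family, and the pseudogene Gm7920 stand between them. Mbl1 differed by -0.03 ± 0.06 after aspiration (adjusted p = 0.688, limma) and by 0.38 ± 0.07 after inhalation (adjusted p = 0.000153), and Gm7920 was not tested. Of the 3 measured genes of the stretch, Sftpd alone passed after aspiration, with 0.99, against 0.07 for Sftpa1.

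Genes whose pattern lay nearest to a member's were found as a description, by the root mean square distance of centred log2 values over the 15 samples. For Abca3 it was Map1lc3b (0.0733) and Rcsd1 (0.0801), for Napsa Dhrs1 (0.0914) and Plekhb2 (0.102), and for Sftpb Il11ra1 (0.0824) and Zcchc24 (0.0828). For Sftpa1 it was Tesk1 (0.0739) and Ube2q1 (0.0794), for Slc34a2 Pdha1 (0.0818) and Nckap1 (0.0824), for Lpcat1 Zfand3 (0.0947) and Pip5k1a (0.0987), and for Lamp3 Zfp219 (0.0975) and Btg3 (0.0992). For Sftpd it was Mgp (0.185) and Rcc1 (0.204), and for Sftpc Hs2st1 and Atp1a4, both at 0.265. The distance is not scaled by a gene's own spread, so distances of different members cannot be ranked against each other. That spread over the 15 samples was largest for Sftpc (SD 0.49) and Sftpd (SD 0.473) and smallest for Sftpa1 (SD 0.133).

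Around the members, lists of genes for the making and handling of surfactant were counted. Over all genes tested 20.6% rose and 26.5% fell after aspiration, and 28.4% rose and 32.5% fell after inhalation. With median centring 4896 of 25256 genes rose and 5274 fell after aspiration, and 4073 rose and 11131 fell after inhalation. With cyclic loess 7886 rose and 6515 fell after inhalation. The list counts below, those of other cell types included, are to be read against these. Of 30 genes for protein processing and lamellar bodies 8 rose and 9 fell after aspiration, with a median of -0.04, the same as over all genes, and with median centring 6 rose and 3 fell. Cd63, a tetraspanin of lysosome-related organelles, rose by 0.78 ± 0.07, and Adgrf5, the receptor through which type 2 cells hold the surfactant pool in check, fell by 1.21 ± 0.11 on the log2 scale. After inhalation 7 rose and 11 fell (median -0.10, and 3 and 21 with median centring), with Npc1, which carries cholesterol out of lysosomes, at -1.01.

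Of 35 tested genes for phospholipid and fatty acid synthesis 7 rose and 15 fell after aspiration (median -0.15), among them the phosphatidate phosphatase genes Lpin1 (-0.81) and Lpin2 (-0.78). After inhalation 8 rose and 15 fell (median -0.14). For inhalation the split was 11 higher and 12 lower with cyclic loess, and 2 and 21 with median centring. The 2 genes with the smallest p after inhalation were both higher, namely Chkb, a choline kinase, by 1.22 and Elovl6, a fatty acid elongase, by 1.0.

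Of the 18 genes for surfactant uptake and clearance 10 rose and 7 fell after aspiration (median 0.21). Csf2rb2 and Csf2rb, close paralogues that encode receptor chains for granulocyte-macrophage colony-stimulating factor or interleukin 3, rose by 1.53 and 1.36. After inhalation 5 rose and 10 fell (median -0.32), with the alpha chain gene Csf2ra higher by 1.51 and Abcg1, a lipid exporter of macrophages, at -0.96. Of 29 regulators of type 2 cells 8 rose and 15 fell after aspiration, with Nfib at -0.54 and the glucocorticoid receptor gene Nr3c1 at -0.57. After inhalation 11 rose and 11 fell (8 and 15 with median centring), with Rbpjl higher by 1.53 and Ehf, an epithelial ETS factor, higher by 1.19.

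Of 42 other identity genes of type 2 cells 8 rose and 18 fell after aspiration, with a median of -0.19. Bex2 fell by 1.90 on the log2 scale, whereas the alarmin gene Il33 rose by 2.28. After inhalation 11 rose and 18 fell (median -0.21, and 3 and 30 with median centring), with the palmitoyltransferase gene Zdhhc3 at -1.05 and Bex2 at -1.43. Genes of the transitional state that type 2 cells pass through during repair rose in 16 of 19 cases after aspiration and fell in none (median 0.62). Tnip3 rose by 1.49 and Lgals3, which encodes galectin 3, by 1.72. After inhalation 7 rose and 4 fell (4 and 13 with median centring), with the secreted chaperone gene Clu at 0.98 and Areg, a ligand of the epidermal growth factor receptor, at 1.70. Which cells of the whole lung gave the transcripts of these lists was not tested.

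**Figure D5:**
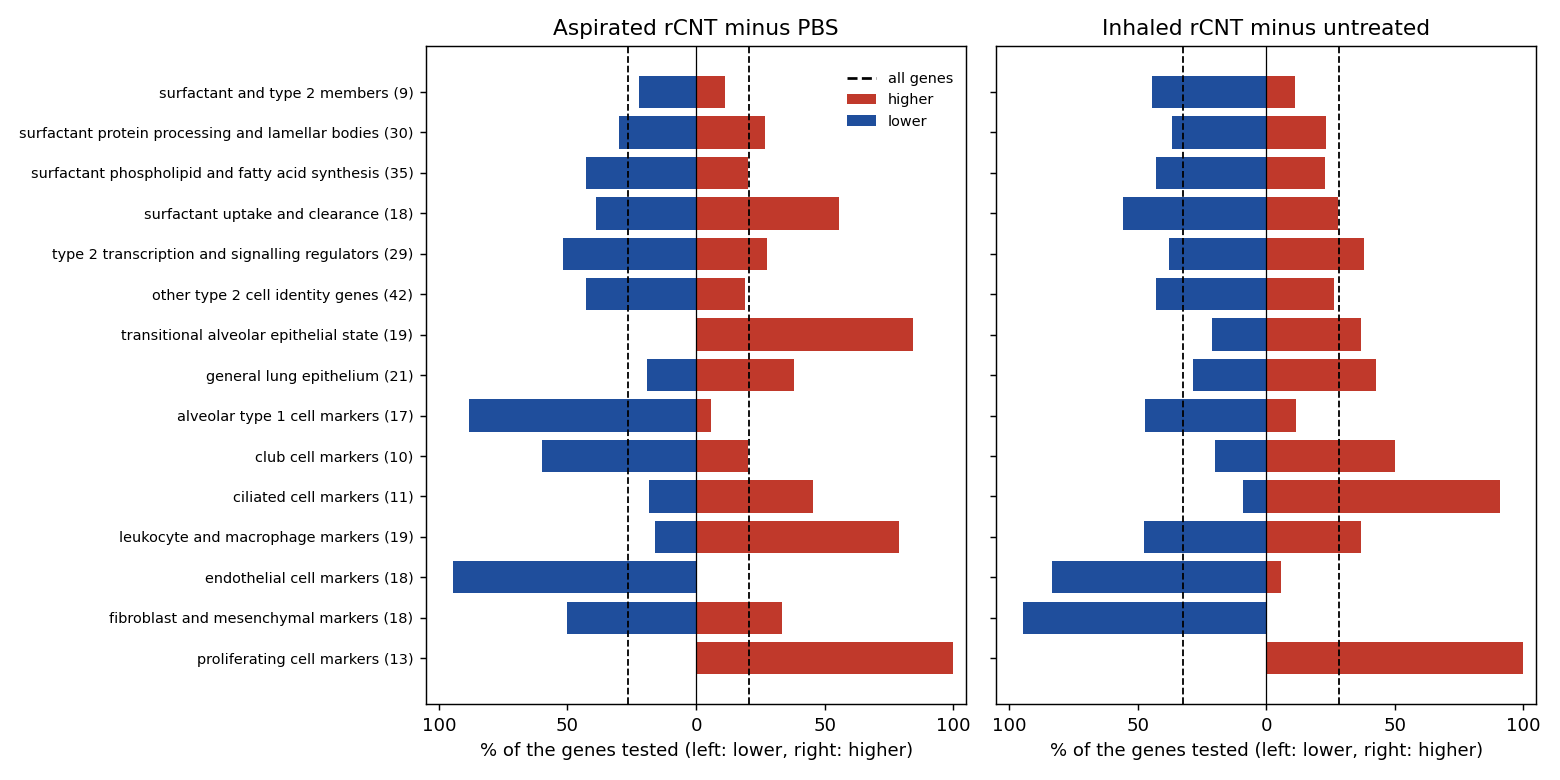
Share of the tested genes of each list (number in brackets) that passed as lower (blue, left of 0) or higher (red, right of 0), for aspirated rCNT minus PBS on the left and inhaled rCNT minus untreated on the right. Dashed lines mark the shares over all genes tested, 26.5% lower and 20.6% higher after aspiration and 32.5% and 28.4% after inhalation. The 9 members stay below the aspiration lines in both directions, while endothelial genes and proliferation genes lie far beyond them.

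Markers of the other cell types of whole lung moved in the same samples, and their part in the members' values was not tested. After aspiration 15 of 19 leukocyte and macrophage markers rose and 3 fell, 13 of 13 proliferation markers rose, 15 of 17 alveolar type 1 markers fell and 1 rose, and 17 of 18 endothelial markers fell. The mean level of the leukocyte list was 12.51 to 12.61 in aspirated rCNT samples, against 11.54 to 11.62 in PBS samples, and that of the alveolar type 1 list 12.52 to 12.71 in aspirated rCNT samples, against 13.28 to 13.38 in PBS samples. The endothelial list lay at 12.18 to 12.33 in aspirated rCNT samples and at 12.82 to 13.01 in PBS samples, and the proliferation list at 10.71 to 10.89 in aspirated rCNT samples and at 8.41 to 8.72 in PBS samples. The mean level of the 9 members lay at 15.04 to 15.13 in aspirated rCNT samples and at 15.11 to 15.22 in PBS samples.

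Other epithelial lists after aspiration were those of club cells (2 of 10 higher, 6 lower), ciliated cells (5 of 11 higher, 2 lower) and general epithelium (8 of 21 higher, 4 lower), and 6 of 18 fibroblast markers rose while 9 fell. Array values have no true 0, and Rtkn2, Scgb3a2, Cd68, Ccdc40 and Dnai2 of these marker lists had no named probe. Scgb1a1, the club cell secretory protein gene, differed by -0.98 ± 0.16 and Ager, the type 1 receptor gene, by -0.70 ± 0.07. Epcam, the marker of epithelium as a whole, differed by 0.23 ± 0.08 (adjusted p = 0.027, limma), and its groups overlapped. Foxj1 of ciliated cells differed by 0.71 ± 0.07, Col1a1 of fibroblasts by 1.36 ± 0.08 and Mki67 of cycling cells by 2.52 ± 0.10. Ptprc of leukocytes differed by 0.36 ± 0.13 and Pecam1 of endothelium by -0.54 ± 0.14, both with overlapping groups.

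After inhalation 17 of 18 fibroblast markers and 15 of 18 endothelial markers fell, and 13 of 13 proliferation markers and 10 of 11 ciliated cell markers rose. Of 19 leukocyte markers 7 rose and 9 fell, of 17 type 1 markers 2 rose and 8 fell, of 10 club cell markers 5 rose and 2 fell, and of 21 general epithelial genes 9 rose and 6 fell. Several of these counts moved with the scaling. With cyclic loess 8 fibroblast markers fell, and 5 type 1 markers rose and 5 fell. With median centring 1 type 1 marker rose and 14 fell, 4 general epithelial genes rose and 11 fell, 3 leukocyte markers rose and 12 fell, and 3 club cell markers rose and 3 fell. The ciliated list lay at 11.52 to 11.89 in inhaled rCNT samples, against 10.42 to 10.57 in untreated samples, and the fibroblast list at 11.93 to 11.96 in inhaled rCNT samples, against 12.24 to 12.41 in untreated samples. The endothelial list lay at 12.39 to 12.66 in inhaled rCNT samples and at 13.04 to 13.14 in untreated samples. The 9 members lay at 14.75 to 15.17 in inhaled rCNT samples and at 15.13 to 15.29 in untreated samples. Epcam differed by -0.27 ± 0.09 (adjusted p = 0.0153, limma), Ager by -0.31 ± 0.07 (adjusted p = 0.00173) and Foxj1, the master factor of ciliated cells, by 1.57 ± 0.08 (adjusted p = 2.88e-10). Scgb1a1 differed by 0.03 ± 0.17 and did not pass. Mki67 differed by 2.22 ± 0.10, Col1a1 by -0.49 ± 0.08 and Pecam1 by -1.18 ± 0.15. Ptprc differed by -0.49 ± 0.14, with overlapping groups.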

How the data were processed

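The members and the gene lists were chosen with earlier results of these data known. Per the file headers, the deposited intensity of each spot was read out by Agilent Feature Extraction 11.0.1.1, for an array design that refers to mm9, and per the submitters' processing notes limma was used as well. Here the median intensity of a sample's own channel was corrected for background by normexp with an offset of 50, converted to log2 and quantile-normalised across the 15 channels (limma 3.58.1, R 4.3.3). A second set of values, the series table that the authors deposited, was taken as log2. The correlation of each column with the own channel was 0.9975 to 1, and the columns had medians of 6.576 to 6.592, and its log base, background correction and centring stay unknown. It served as an alternative.

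Probes detected (well above background) in 3 or more samples of 1 group were kept, which left 34277 of 55681. No spot was saturated. A gene with several probes was represented by its brightest one on average. Probes were named through their accession with a RefSeq table of GRCm38.p6, used for names, neighbours and promoter windows (27656 of 29123 probes with a RefSeq accession matched, 20972 genes). Groups came from the labels. One limma model (lmFit and eBayes, two-sided) with group and dye was fitted to all samples, and p-values were adjusted by Benjamini-Hochberg over 25256 genes, 15842 of them with a symbol. The fit was tested on simulated data. All members were named. For the lists of surfactant handling, regulators, type 2 identity and the transitional state, the rule named the 2 genes with the smallest p by each route. The lists of general epithelium and other cell types were given as counts. Of these lists Ager, Scgb1a1, Foxj1, Epcam, Ptprc, Pecam1, Col1a1 and Mki67 were named for both routes as defining markers, not by their p. Alternatives changed scaling, background, filter, probe rule, dye, slide and replicate terms, variance model and samples, and fits within each dye were added after seeing the data. The number of arrays limits the precision. Tables and figures were made with Python 3.11.15. A listed gene that the rule for named genes picked after inhalation is not reported here.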

Additional observations from a re-analysis of the deposited data

Results flagged for a closer look

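In untreated samples Sftpb was at 16.97 in replicate 1 and at 17.06, 17.05 and 17.05 in the other 3, so replicate 1 stood far below the rest relative to the group's whole range. It was the 1 value set apart among 27 groups of 4 samples examined for the 9 genes, and chance sets apart about 1 in 20 such groups. The sample is the one whose title speaks of PBS aspiration. PBS samples had Sftpb at 17.11 to 17.36. With median centring PBS samples were at 16.78 to 17.08, this sample at 17.23 and the other untreated samples at 17.63 to 17.77, so which group it lay nearer to depended on the scaling.

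The effects of the 2 routes differed for 2 genes by limma's test of the difference. For Sftpb the aspiration effect minus the inhalation effect was -0.58 ± 0.10 (adjusted p = 0.000124, limma), with an effect of -0.50 by aspiration and 0.09 by inhalation. For Napsa it was 0.90 ± 0.13 (adjusted p = 3.61e-05, limma), with an effect of -0.05 by aspiration and -0.95 by inhalation. Each difference includes any difference between PBS and untreated lungs, which was 0.19 ± 0.07 for Sftpb and -0.20 ± 0.09 for Napsa, and slide cannot be told apart from route.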

How the results depend on the processing

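Counts of members past the threshold were 3 after aspiration, 5 after inhalation and 2 for the difference of routes. The first became 6 with array weights and 5 within Cy3, fits in which 14114 and 8699 of 25256 genes passed. The second became 8 with median centring and 8 within Cy3, with and without median centring. Over all genes 15204 passed with median centring, 13294 within Cy3 and 13491 within Cy3 with median centring. The third became 7 with median centring, 4 with cyclic loess, 4 with slide as a block and 5 with array weights. Over all genes those fits gave 13942, 14031, 14454 and 15162, in place of 14390. The slide term sets slide 3 apart from slides 1 and 2 together, so it does not separate slide from route. Leaving out 1 sample at a time gave 3 to 5 (5 without PBS replicate 2), 4 to 7 (7 without inhaled rCNT replicate 2) and 2 to 6 (6 without inhaled rCNT replicate 2, 4 without aspirated rCNT replicate 3). Over all genes the ranges were 10426 to 12317, 14033 to 15399 and 13486 to 14353. Genes past the threshold after aspiration (11907) numbered 6528 within Cy3 with median centring, 7577 within Cy5 and 5389 within Cy5 with median centring, fits with fewer samples per group, and those after inhalation (15365) numbered 9794 within Cy5 with median centring. The labels do not say whether replicate numbers pair the samples, and so few samples cannot decide it. Same-numbered deviations correlated at -0.135 to 0.286. The same-numbered control was the best match for aspirated rCNT replicates 1 and 4 and inhaled rCNT replicate 3, and not for the others. With the replicate block 3, 5 and 3 members and 11340, 14642 and 13666 genes passed.

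Sftpd and Abca3 after aspiration passed in 32 of 32 alternatives and Sftpb in 31 of 32 (-0.28 within Cy5 with median centring). After inhalation Napsa and Lpcat1 passed in 34 of 34, Abca3 in 32, Slc34a2 in 29 and Sftpd in 27. The inhalation counts include the fits within slide 2, slide 3 and Cy5, where 1 group had 1 sample.

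Some directions turned where the value was near 0 and others where it was not, and the cause was not tested. After aspiration Sftpa1 was -0.02 with cyclic loess and -0.05 within Cy5, Lamp3 was 0.03 with median centring and 0.06 within Cy3 with median centring, and Napsa was 0.03 with median centring and 0.01 (0.10 with median centring) within Cy5. After inhalation Sftpb was -0.43 with median centring, overall and within Cy3 and Cy5, and -0.02 with processed signal. With cyclic loess Sftpa1 was 0.16 in place of -0.17 and Sftpc 0.23 in place of -0.32. Lamp3 was 0.12 within Cy5, in place of -0.24. The difference of routes turned with median centring for Sftpb (from -0.58 to 0.06) and Abca3 (from -0.10 to 0.65). For Sftpc, at 0.04, it turned with cyclic loess (-0.87) and array weights (-0.05). With cyclic loess it also turned for Sftpa1 (from 0.23 to -0.17), Sftpd (from 0.49 to -0.23) and Lamp3 (from 0.12 to -0.06). In the difference of routes Sftpc ran from -0.09 to 0.17 when each sample was left out in turn.

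For PBS minus untreated, median centring gave -0.67 for Sftpb, -0.83 for Sftpc, -0.47 for Abca3, -0.43 for Lamp3 and -0.05 for Slc34a2, and Sftpc was -0.05 with processed signal and -0.01 with the deposited series table. For inhaled rCNT minus PBS, Sftpa1 was -0.01 without the dye term, Sftpb 0.24 with median centring and 0.22 with cyclic loess, and Sftpc 0.06 with median centring. Leaving out each sample in turn gave -0.05 to 0.13 for Sftpc in PBS minus untreated, and for inhaled rCNT minus PBS -0.09 to 0.08 for Sftpa1 and -0.16 to 0.03 for Lpcat1. Array as a random block was not run, because with 1 shared array no correlation could be estimated.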
